A study of Mus musculus with 12 samples.

Results

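Fatty acid metabolism was followed in mouse embryonic fibroblasts (MEFs) through 46 genes, 35 of fatty acid oxidation and 11 of fatty acid synthesis, out of 34866 genes in the deposited expression table. The genes were taken from a list written from known functions, but with earlier results of these data known. Shares of the list set against all genes are therefore descriptive only. Each symbol was matched to 1 Ensembl identifier in the GENCODE annotation of the mouse genome build GRCm38. The MEFs came from single embryos of 13 days, either 129S1/SvImJ wild type (WT) or Sirt3-/- (KO, with sirtuin 3 deleted), and were sorted by sex through a Y-chromosome gene. These gave 4 groups of 3 libraries, written WT_M and KO_M for males and WT_F and KO_F for females. Cells of all 4 groups were immortalized with a plasmid carrying SV40 T-antigen, used at passage 6 and lysed 48 h after seeding in triplicate wells. The sources used here do not state how many embryos or lines stand behind a group, so line cannot be told apart from genotype or sex, and the p-values may measure only the spread between wells. Expression is given in TPM, the share of a gene's transcripts among all transcripts of a library after correction for their length, so that levels of different genes can be compared.

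Oxidation breaks fatty acids down for energy. An acyl-CoA synthetase activates the fatty acid, carnitine carries it into the mitochondrion, and a cycle of enzyme steps then shortens it by repeated release of acetyl-CoA, with the electrons passed to the respiratory chain. Synthesis runs the other way, in the cytosol from citrate through acetyl-CoA and malonyl-CoA to palmitate. Elongases lengthen and desaturases unsaturate palmitate or other fatty acids. Sirt3 is a deacetylase of the mitochondrial matrix, and several of its known substrates are enzymes of oxidation.

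Of the 46 genes, 43 reached an average of 1 TPM across the 12 libraries, 32 of oxidation and all 11 of synthesis. Ehhadh (mean 0.24 TPM), Ppara (0.16 TPM) and Prkaa2 (0.90 TPM) fell below that average. The most abundant transcripts were those of the desaturase Scd2 (192 TPM), the fatty acid synthase Fasn (172 TPM) and the ATP citrate lyase Acly (127 TPM), followed on the oxidation side by both subunits of the electron transfer flavoprotein, Etfb (120 TPM) and Etfa (107 TPM). The depth behind these values is unknown, because TPM hold no read totals.

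Some facts of the whole series bear on every value below. Sirt3 itself averaged 7.61 ± 1.30 TPM in WT_M, 10.3 ± 1.19 TPM in KO_M, 7.90 ± 0.70 TPM in WT_F and 8.27 ± 0.75 TPM in KO_F (SD, n = 3 each), so the libraries labelled KO did not have less Sirt3 mRNA than the WT ones, and KO below means the libraries so labelled. Whether that mRNA was complete cannot be read from a value per gene. The study also shows an immunoblot of Sirt3 protein in its MEFs, which was not examined here. Of 12 fibroblast markers, 11 reached a mean of 1 TPM and Lum did not. Their summed level was 10188 to 11348 TPM in WT_M, 13387 to 14128 TPM in KO_M, 8860 to 9094 TPM in WT_F and 11368 to 11724 TPM in KO_F. Of the 11, 6 were higher in KO_M and 9 in KO_F by limma at an adjusted p under 0.05, and none was lower. Over all genes 10.7% and 5.63% were higher. In males Col1a1 averaged 3184 TPM in WT_M and 4807 TPM in KO_M, whereas Vim (3109 and 3113 TPM) and Fn1 (1265 and 1297 TPM) stayed close. The summed level of 5 epithelial markers, of which Epcam, Krt18 and Krt19 reached 1 TPM, was 76.0 to 77.8 TPM in WT_M, 7.91 to 8.78 TPM in KO_M, 19.7 to 22.7 TPM in WT_F and 7.40 to 10.2 TPM in KO_F. Of 6 adipocyte markers only Fabp4 reached 1 TPM, Lep, Cidec and Cfd were at 0 in all 12 libraries, and the summed level was 6.52 to 7.53 TPM in WT_M against 0.83 to 2.74 TPM in the other groups. Of 4 muscle markers Acta1 and Des reached 1 TPM, and the summed level was 9.21 to 11.2 TPM in WT_M, 5.10 to 5.47 TPM in KO_M, 12.6 to 15.7 TPM in WT_F and 7.79 to 9.67 TPM in KO_F. Des averaged 6.26 TPM in WT_F and 0.13 TPM in KO_F, at -2.70 ± 0.17 (adjusted p = 2.948e-04), and Acta1 10.3 TPM in WT_M and 5.07 TPM in KO_M, at -0.89 ± 0.12 (adjusted p = 0.00226). Of 4 endothelial markers only Kdr reached 1 TPM, at a mean of 4.77 TPM in WT_F and 1.76 TPM in KO_F (-1.06 ± 0.13, adjusted p = 0.00368), and the summed level was 4.72 to 5.76 TPM in WT_F against 1.40 to 2.25 TPM in the other groups. The summed level of 4 blood cell markers, of which only Cd68 reached 1 TPM, lay between 3.98 and 10.02 TPM and overlapped between all groups, and that of 4 hepatocyte markers was at most 0.29 TPM. The summed levels of the fibroblast, epithelial, adipocyte, muscle and endothelial markers moved with the groups compared below. The part of these markers in the results was not tested.

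KO and WT were compared within each sex by limma on log2(TPM + 1), fitted on the 12504 genes that averaged 1 TPM or more. A gene passed at a Benjamini-Hochberg adjusted p under 0.05, and every log2 fold change below is a difference on the log2(TPM + 1) scale. In males, 4 of 32 oxidation genes passed, all higher in KO_M, and 4 of 11 synthesis genes passed, all higher as well. Without any 1 of the WT_M libraries the oxidation count was 2. Over all genes 21.6% passed in this comparison (10.7% higher and 10.9% lower). The shares of 12.5% of oxidation genes and 36.4% of synthesis genes rest on 4 genes each and draw no contrast between the lists. KO_M and WT_M values did not overlap for 14 of 32 oxidation and 5 of 11 synthesis genes, against 40.0% of all genes. The median log2 fold change was 0.04 for oxidation and 0.09 for synthesis, against -0.02 for all genes.

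In females, 3 of 32 oxidation genes passed, 1 higher and 2 lower in KO_F, and 2 of 11 synthesis genes passed, both higher. The oxidation count was 1 when a single library was left out, except without WT_F replicate 2 or KO_F replicate 3, where 0 passed by limma and 8 had an unadjusted p under 0.05. The background was 11.5% of all genes, 5.63% higher and 5.84% lower. The shares of 9.38% of oxidation genes and 18.2% of synthesis genes rest on 3 and 2 genes. Counts this small and this near the background draw no contrast between the lists. KO_F and WT_F values did not overlap for 11 oxidation and 7 synthesis genes, against 33.6% of all genes. The median log2 fold change was 0.03 for oxidation and 0.09 for synthesis, against -0.02 for all genes. The summed level of the synthesis genes was 859 ± 13.4 TPM in WT_M, 967 ± 35.1 TPM in KO_M, 953 ± 10.5 TPM in WT_F and 1029 ± 15.2 TPM in KO_F (SD, n = 3 each), and that of the oxidation genes was 1225 ± 14.97, 1295 ± 26.5, 1161 ± 11.9 and 1205 ± 8.17 TPM in the same order. Abundant genes weigh most in these sums. Scd2 averaged 155 TPM in WT_M and 198 TPM in KO_M, and 179 TPM in WT_F and 237 TPM in KO_F. The log2 fold change was above 0 for 8 of the 11 synthesis genes in each sex, and below 0 for the rest. A bulk library cannot tell fewer cells of a kind from less RNA per cell.

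**Figure D1:**
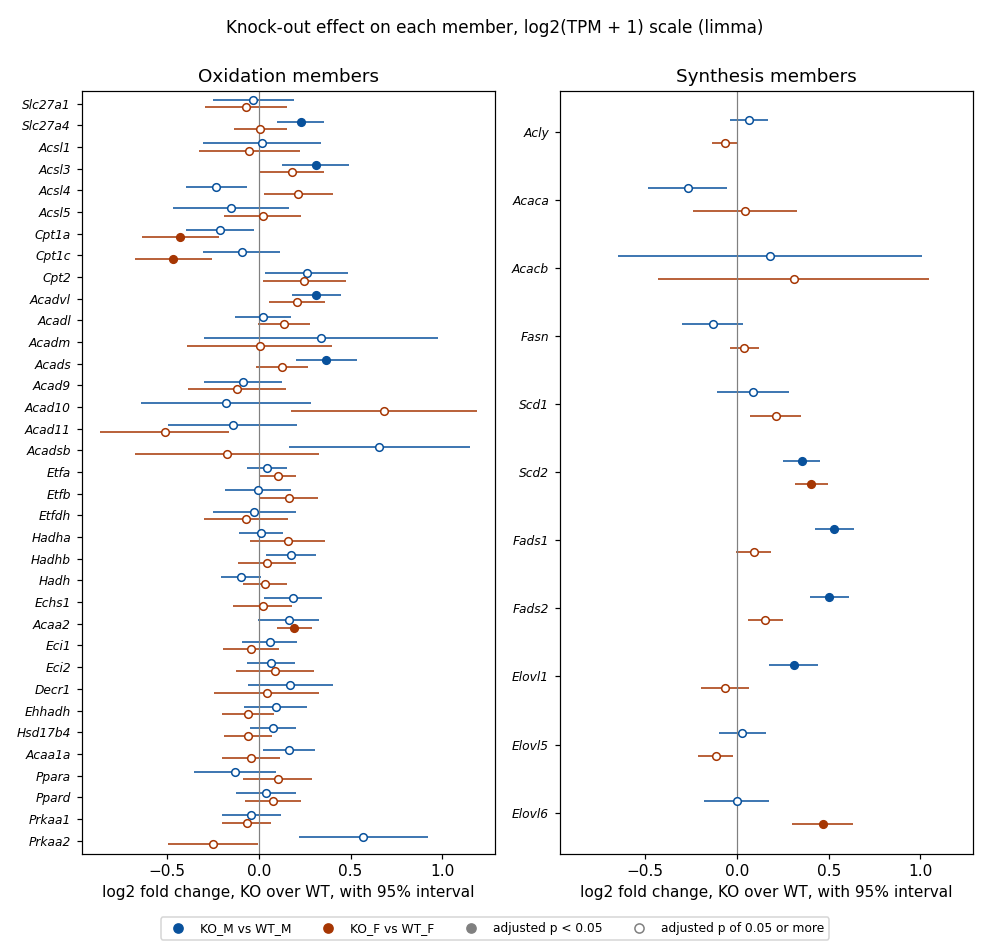
Log2 fold change of KO over WT on the log2(TPM + 1) scale for the 46 genes, with the 95% limma interval, in males (blue) and females (orange). Filled points have an adjusted p under 0.05. Scd2 is filled in both sexes, Fads1, Fads2 and Elovl1 only in males and Elovl6 only in females, and most oxidation genes lie within 0.3 of zero.

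Uptake and activation were the first step examined. Slc27a4 encodes a fatty acid transport protein that also acts as an acyl-CoA synthetase. Its level was 27.1, 27.6 and 26.4 TPM in the WT_M libraries and 32.0, 32.2 and 31.3 TPM in the KO_M libraries, against 29.5, 27.4 and 27.6 TPM in WT_F and 29.2, 28.9 and 26.9 TPM in KO_F. All male KO values lay above all male WT values, whereas the female groups overlapped. The male difference was 0.23 ± 0.06 (SE, adjusted p = 0.0265) and the female difference 0.01 ± 0.06 (95% interval -0.14 to 0.15, adjusted p = 0.958). The male call was lost whichever of the 6 libraries was left out, with adjusted p from 0.0544 to 0.0929.

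Acsl3, an acyl-CoA synthetase of the endoplasmic reticulum and lipid droplets, was at 20.8, 18.6 and 21.1 TPM in WT_M and 23.9, 25.7 and 25.9 TPM in KO_M. In females it was at 25.6, 22.9 and 23.4 TPM in WT_F and 29.2, 26.9 and 25.6 TPM in KO_F. Neither pair of groups overlapped, and in females the lowest KO_F and the highest WT_F library were separated by less than 0.1 TPM. The log2 fold change was 0.31 ± 0.08 in males (adjusted p = 0.0286) and 0.18 ± 0.07 in females (adjusted p = 0.180). The male call held only when KO_M replicate 1 was left out (adjusted p = 0.0460), and leaving out any of the other 5 libraries gave up to 0.0969.

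Acsl4, the synthetase that prefers arachidonic acid and lies on the X chromosome, differed in the opposite direction in each sex. It was at 28.8, 29.6 and 29.4 TPM in WT_M and 25.1, 26.4 and 23.0 TPM in KO_M. Female values were 26.0, 29.5 and 24.7 TPM in WT_F and 32.8, 29.8 and 30.7 TPM in KO_F. The groups did not overlap in either sex, with KO below WT in males and above it in females. Neither difference passed alone, at -0.23 ± 0.07 in males (adjusted p = 0.0560) and 0.21 ± 0.08 in females (adjusted p = 0.138). The other genes of this step, the transporter Slc27a1 and the synthetases Acsl1 and Acsl5, overlapped between KO and WT in both sexes, with differences from -0.15 to 0.02.

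The carnitine shuttle moves long-chain acyl groups across the mitochondrial membranes. Carnitine palmitoyltransferase 1 catalyses its committed step at the outer membrane, with Cpt1a as the widely expressed form and Cpt1c as a form best known from neurons and placed in the endoplasmic reticulum, and Cpt2 rebuilds the acyl-CoA inside. Cpt1a was at 15.7, 17.1 and 18.4 TPM in WT_F and 13.3, 11.6 and 12.3 TPM in KO_F, so that all KO_F libraries were lower. It fell by 0.43 ± 0.09 on the log2 scale (adjusted p = 0.0263). In males the values were 18.6, 18.7 and 19.4 TPM in WT_M and 16.7, 17.03 and 14.8 TPM in KO_M, which did not overlap either, at -0.21 ± 0.08 (adjusted p = 0.106).

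Cpt1c was at 26.1, 29.2 and 26.0 TPM in WT_F and 19.4, 21.1 and 17.5 TPM in KO_F. Every KO_F value was again below every WT_F value, and Cpt1c fell by 0.47 ± 0.09 (adjusted p = 0.0200). In males, with 22.6, 23.9 and 23.7 TPM in WT_M and 20.2, 24.8 and 20.8 TPM in KO_M, the groups overlapped and the difference was -0.10 ± 0.09 (adjusted p = 0.4995). Cpt2 differed by 0.26 ± 0.10 in males (adjusted p = 0.1004) and 0.25 ± 0.09 in females (adjusted p = 0.149), with no overlap in either. Both female calls were lost in most fits that left out 1 library. The differences stayed between -0.48 and -0.38 for Cpt1a and between -0.53 and -0.40 for Cpt1c. The Cpt1a call held only without WT_F replicate 1 (adjusted p = 0.0466) or KO_F replicate 1 (0.0486) and otherwise rose to as much as 0.0883, the Cpt1c call held only without KO_F replicate 2 (0.0300) and otherwise reached 0.0655, and without the filter on low values they stood at 0.0556 and 0.0578.

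The promoters of both carnitine palmitoyltransferase 1 genes that fell in KO_F are shown because each held AGGTCA, the half-site bound by PPAR and other nuclear receptors. The sequences are the 250 bases before the RefSeq start on GRCm38.p6, 5′ to 3′ on the strand of the gene, with the half-site in capitals (TGACCT where it lies on the opposite strand). Cpt1a covers chr19:3323051-3323300 on the plus strand and Cpt1c chr7:44974852-44975101 on the minus strand.
Cpt1a: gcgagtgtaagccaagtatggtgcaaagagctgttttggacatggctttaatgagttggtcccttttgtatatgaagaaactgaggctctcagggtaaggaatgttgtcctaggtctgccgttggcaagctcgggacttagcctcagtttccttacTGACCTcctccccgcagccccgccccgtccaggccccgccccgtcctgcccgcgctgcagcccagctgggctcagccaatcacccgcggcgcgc
Cpt1c: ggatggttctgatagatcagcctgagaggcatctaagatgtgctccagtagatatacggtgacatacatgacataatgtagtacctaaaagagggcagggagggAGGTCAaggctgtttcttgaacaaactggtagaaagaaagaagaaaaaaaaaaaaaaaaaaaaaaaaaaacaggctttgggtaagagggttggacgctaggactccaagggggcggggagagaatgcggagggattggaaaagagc
The match began 94 bases before the start in Cpt1a and 146 in Cpt1c. AGGTCA was found on either strand in 8 of 43 promoters of 39 listed genes (18.6%), namely those of Acadm, Acadvl, Acly, Cpt1a, Cpt1c, Echs1, Elovl1 and Elovl6, and in 14.02% of 32851 promoters of the same length. The full PPAR response element, a pair of these half-sites spaced by 1 base, was found in 0 of the 43 and in 0.03348% of all promoters. These matches describe the letters only.

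Acyl-CoA dehydrogenases catalyse the first step of each round of oxidation and differ in chain length. Acadvl, which takes very long chains, was at 52.4, 57.4 and 55.7 TPM in WT_M and 67.2, 72.2 and 67.0 TPM in KO_M, and at 50.4, 51.7 and 58.2 TPM in WT_F and 59.5, 62.2 and 63.6 TPM in KO_F. KO libraries were above WT libraries in both sexes without overlap. The log2 fold change was 0.31 ± 0.06 in males (adjusted p = 0.00885) and 0.21 ± 0.06 in females (adjusted p = 0.0877). Acads, which takes short chains, was at 24.7, 27.8 and 25.1 TPM in WT_M and 33.1, 32.7 and 35.1 TPM in KO_M, and at 31.0, 27.8 and 30.1 TPM in WT_F and 33.2, 32.6 and 31.4 TPM in KO_F. Its male groups lay well apart and its female groups close together but still apart, at 0.37 ± 0.07 (adjusted p = 0.0104) and 0.13 ± 0.06 (adjusted p = 0.236). Both male calls held whichever library was left out.

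The other 6 dehydrogenases did not pass in either sex. Acadl, the long-chain enzyme, overlapped in both, at 0.02 in males and 0.13 in females. Acadm, the medium-chain enzyme, varied widely between replicates (14.5 to 25.5 TPM in WT_M and 17.4 to 31.8 TPM in KO_M), and its interval of -0.30 to 0.97 in males leaves its direction undetermined. Acadsb, which acts on short branched chains, was at 14.6 to 17.9 TPM in WT_M and 19.4 to 36.3 TPM in KO_M, with the highest difference of the oxidation genes in males (0.66 ± 0.21, adjusted p = 0.0671). In females the largest differences were those of Acad10 (0.68 ± 0.21, adjusted p = 0.0915) and Acad11 (-0.51 ± 0.15, adjusted p = 0.0731), both of low level. Acad9, also an assembly factor of respiratory complex I, overlapped in both sexes.

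**Figure D2:**
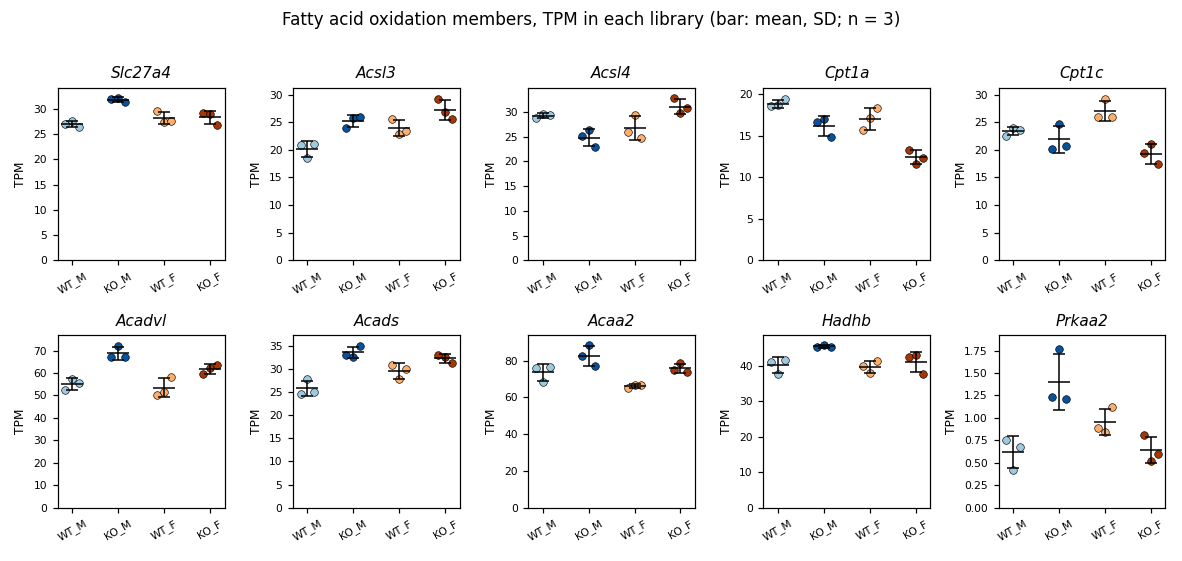
TPM of 10 oxidation genes in each of the 12 libraries, with the mean and SD of each group (n = 3) and the axis from 0. Slc27a4, Acadvl and Acads are higher in KO_M than in WT_M without overlap, and Acadvl and Acads also in KO_F over WT_F. Cpt1a and Cpt1c are lower in KO_F than in WT_F without overlap, and Cpt1a also in KO_M than in WT_M. Acsl4 lies below WT in KO_M and above WT in KO_F.

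Of 5 genes of the later mitochondrial steps, Acaa2 alone passed, in females. Acaa2, the thiolase that releases acetyl-CoA, was at 65.2, 67.0 and 66.5 TPM in WT_F and 74.8, 78.6 and 74.0 TPM in KO_F, and at 76.2, 68.1 and 76.6 TPM in WT_M and 82.2, 88.3 and 77.1 TPM in KO_M. KO libraries were higher in both sexes without overlap, and the difference passed in females at 0.19 ± 0.04 (adjusted p = 0.0277) but not in males at 0.16 ± 0.07 (adjusted p = 0.148). The female call was lost without any one of the 6 libraries (adjusted p from 0.0554 to 0.0880) and stood at 0.0512 when all 12 libraries shared 1 fit. Hadhb, the beta subunit of the trifunctional protein, was at 41.2, 37.8 and 41.7 TPM in WT_M and 45.4, 45.96 and 45.2 TPM in KO_M, and at 40.1, 37.9 and 41.3 TPM in WT_F and 42.5, 42.9 and 37.8 TPM in KO_F. The male groups did not overlap and the female groups did, and neither difference passed, at 0.18 ± 0.06 in males (adjusted p = 0.0712) and 0.05 ± 0.07 in females (adjusted p = 0.709).

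Its partner Hadha, which lies next to it in the genome in the opposite orientation, differed by 0.01 in males (95% interval -0.11 to 0.13) and 0.16 in females (-0.05 to 0.36), overlapping in both. The hydratase Echs1 and the short-chain dehydrogenase Hadh did not pass either, at 0.18 and -0.10 in males and 0.02 and 0.03 in females. Among the genes of electron transfer, Etfa, Etfb and Etfdh, none of 3 passed in either sex by limma, and none had an unadjusted p under 0.05. The same held for Eci1, Eci2 and Decr1, which handle double bonds and ranged from -0.04 to 0.17.

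For the peroxisome, which shortens very long chains, Hsd17b4 and Acaa1a did not pass, with differences from -0.06 to 0.16 over both sexes. Acaa1a has a near-identical copy, so reads could be split between them. Ehhadh, the bifunctional peroxisomal enzyme, stayed between 0.15 and 0.37 TPM in all libraries. Among the regulators, Ppara, the receptor that drives oxidation genes in liver, stayed at or below 0.26 TPM, while Ppard, the widely expressed relative, averaged 29.8 TPM and Prkaa1, the alpha-1 catalytic subunit of the AMP-activated kinase, 28.6 TPM. Neither of the latter passed, with differences from -0.07 to 0.08.

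Prkaa2, the alpha-2 catalytic subunit of the same kinase, was measured at the lower end of the scale, at 0.75, 0.41 and 0.68 TPM in WT_M and 1.23, 1.77 and 1.21 TPM in KO_M. In females it was at 0.89, 0.84 and 1.12 TPM in WT_F and 0.81, 0.52 and 0.60 TPM in KO_F. All KO_M values were above all WT_M values and all KO_F values below all WT_F values. In the fit of 22401 genes without the filter, where 10.4% of genes passed in males and 5.03% in females, the difference was 0.57 ± 0.14 in males (adjusted p = 0.0731) and -0.25 ± 0.09 in females (adjusted p = 0.263). With a pseudocount of 1, a difference at this level understates the change.

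On the synthesis side, the path from citrate to palmitate did not pass at any of its 4 genes in either sex by limma, with 1 of 4 at an unadjusted p under 0.05 in males and 0 of 4 in females. Acaca, the acetyl-CoA carboxylase that makes malonyl-CoA for synthesis, was at 68.3, 67.0 and 63.5 TPM in WT_M and 48.4, 62.3 and 54.4 TPM in KO_M, and at 67.3, 61.0 and 62.6 TPM in WT_F and 66.8, 54.5 and 77.2 TPM in KO_F. In males all KO libraries were lower, at -0.27 ± 0.09 (95% interval -0.49 to -0.05, adjusted p = 0.0796), and in females the KO libraries lay on both sides of WT, at 0.04 ± 0.12 (adjusted p = 0.860). One library weighed on each value, since without KO_M replicate 2 the male difference was -0.36 (adjusted p = 0.0220), and without KO_F replicate 3 the female difference turned to -0.07 (adjusted p = 0.696).

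Fasn, which builds palmitate from malonyl-CoA, was at 155, 178 and 176 TPM in WT_M and 146, 165 and 152 TPM in KO_M, and at 184, 182 and 174 TPM in WT_F and 187, 184 and 184 TPM in KO_F. The groups overlapped in males, where the mean of KO_M was lower (-0.13 ± 0.07, 95% interval -0.30 to 0.03, adjusted p = 0.230), and lay within 14 TPM of each other in females (0.04 ± 0.03, adjusted p = 0.485). Acly, which cleaves citrate, differed by 0.06 in males and -0.07 in females. Acacb, the carboxylase of the mitochondrial outer membrane whose malonyl-CoA holds back Cpt1, averaged 1.54 TPM and varied between replicates by more than any difference between groups (0.76 to 3.17 TPM within KO_M).

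Among the synthesis genes the largest changes in males were those of 2 desaturases. Fads1, the delta-5 desaturase of polyunsaturated fatty acids (chr19:10182888-10196877, GRCm38), was at 59.6, 58.7 and 59.3 TPM in WT_M and 88.2, 87.1 and 82.5 TPM in KO_M. It was at 71.4, 71.3 and 70.2 TPM in WT_F and 72.8, 77.7 and 76.5 TPM in KO_F. The male groups were more than 20 TPM apart and the female groups about 1 TPM apart. Fads1 rose by 0.53 ± 0.05 in males (1.44-fold, adjusted p = 3.28e-04), and in females the difference was 0.09 ± 0.04 (95% interval -0.0046 to 0.19, adjusted p = 0.203).

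Fads2, the delta-6 desaturase that acts before Fads1 (chr19:10062765-10101746), was at 64.8, 69.7 and 68.2 TPM in WT_M and 94.7, 95.8 and 98.04 TPM in KO_M. It was at 83.8, 87.6 and 81.8 TPM in WT_F and 96.5, 92.9 and 92.5 TPM in KO_F. Neither sex showed overlap. Fads2 rose by 0.50 ± 0.05 in males (1.42-fold, adjusted p = 4.31e-04), and the female difference of 0.15 ± 0.04 did not pass (adjusted p = 0.0585).

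Scd2, a stearoyl-CoA desaturase that makes monounsaturated fatty acids best known from the brain, was at 154, 158 and 153 TPM in WT_M and 188, 203 and 204 TPM in KO_M, and at 172, 180 and 185 TPM in WT_F and 233, 234 and 244 TPM in KO_F. In both sexes every KO library was above every WT library by at least 30 TPM. It was the only one of the 46 genes that passed in both sexes, at 0.35 ± 0.04 in males (1.28-fold, adjusted p = 0.00182) and 0.40 ± 0.04 in females (1.32-fold, adjusted p = 0.00139). Scd1, its neighbour on chromosome 19, did not pass, at 0.09 ± 0.08 in males (adjusted p = 0.491) and 0.21 ± 0.06 in females (adjusted p = 0.0686), where the groups did not overlap. The calls of Fads1, Fads2 and Scd2 held without each library in turn.

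Elongases add carbons to existing chains. Elovl1, which acts on saturated and monounsaturated very long chains, was at 108, 101 and 114 TPM in WT_M and 130, 140 and 130 TPM in KO_M, and at 114, 120 and 115 TPM in WT_F and 106, 120 and 107 TPM in KO_F. It rose in males by 0.31 ± 0.06 (1.24-fold, adjusted p = 0.0101), with no overlap, and overlapped in females (-0.07 ± 0.06, adjusted p = 0.495). Elovl6, which takes palmitate to stearate, showed the reverse arrangement. Its values were 16.4, 16.5 and 16.7 TPM in WT_M and 15.4, 17.3 and 16.8 TPM in KO_M, so that the male groups overlapped (0.00 ± 0.07, 95% interval -0.18 to 0.17, adjusted p = 0.986). In females it rose from 14.7, 14.01 and 13.4 TPM in WT_F to 19.3, 19.3 and 20.7 TPM in KO_F, by 0.47 ± 0.07 (1.38-fold, adjusted p = 0.00908). Elovl5, which lengthens polyunsaturated chains between the steps of Fads2 and Fads1, did not pass, at 0.03 in males and -0.12 in females. The calls of Elovl1 in males and of Elovl6 in females held without each library in turn.

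**Figure D3:**
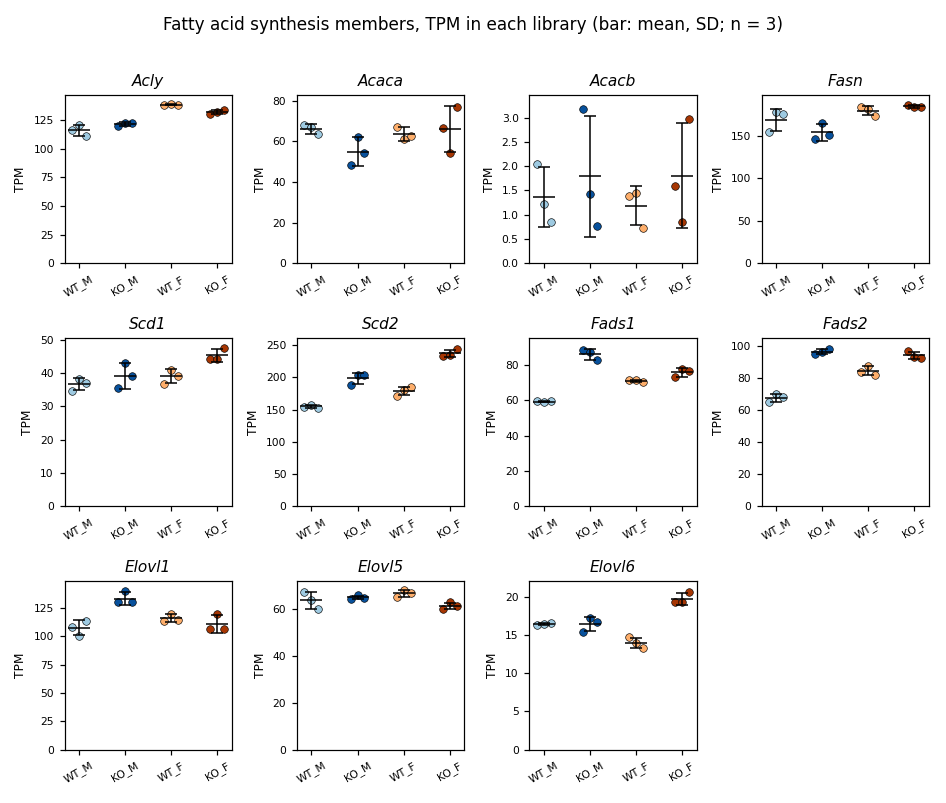
TPM of the 11 synthesis genes in each of the 12 libraries, with the mean and SD of each group (n = 3) and the axis from 0. Scd2 is higher in KO than in WT in both sexes, Fads1, Fads2 and Elovl1 are higher in KO_M than in WT_M without overlap, Elovl1 overlaps between KO_F and WT_F, and Elovl6 is higher in KO_F and level in males.

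Promoters of a gene that rose in males and of one that rose in females are set side by side, taken in the same way as above. Fads2 covers chr19:10101504-10101753 on the minus strand and Elovl6 chr3:129532136-129532385 on the plus strand of GRCm38.p6, with capitals marking the opposite-strand half-site.
Fads2: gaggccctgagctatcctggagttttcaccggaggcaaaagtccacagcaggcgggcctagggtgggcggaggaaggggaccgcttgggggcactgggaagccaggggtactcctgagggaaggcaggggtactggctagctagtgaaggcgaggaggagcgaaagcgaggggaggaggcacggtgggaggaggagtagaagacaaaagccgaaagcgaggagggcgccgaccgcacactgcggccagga
Elovl6: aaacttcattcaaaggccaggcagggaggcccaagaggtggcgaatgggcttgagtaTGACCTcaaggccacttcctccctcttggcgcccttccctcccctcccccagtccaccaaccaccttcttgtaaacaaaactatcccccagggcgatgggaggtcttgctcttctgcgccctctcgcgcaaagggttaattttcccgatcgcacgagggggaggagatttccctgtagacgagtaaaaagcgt
In Elovl6 the half-site began 193 bases before the start, and the Fads2 window held none of the motifs searched. The half-site was not confined to genes that rose in females. It also began 95 bases before the start of Elovl1 and 87 before that of Acadvl, which both passed as higher in KO_M. The sterol response element TCACNCCAC, bound by the SREBP factors that drive synthesis genes, was found on either strand in 2 of 43 promoters of the listed genes (4.651%), those of Acsl1 and Ehhadh, and in 1.053% of all promoters. The E-box CACGTG was found in 2 of 43 (4.651%), those of Elovl5 and Slc27a1, and in 6.021% of all promoters. The promoters of Fads1, Scd1, Scd2, Acad9, Acaa2, Decr1 and Hsd17b4 were not analysed here.

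Because Fads1 and Fads2 lie together on chromosome 19, the genes within 150 kb of the span from Fads3 to Fads1 were examined. This choice was made after the values of Fads1 and Fads2 were seen. Of 11 genes in the window 10 were tested, 7 besides the desaturases. Fads3, the remaining desaturase of the cluster (chr19:10041569-10060110), was at 70.8, 70.8 and 70.7 TPM in WT_M and 106, 116 and 110 TPM in KO_M, and at 84.8, 88.2 and 87.5 TPM in WT_F and 100.2, 96.7 and 100.5 TPM in KO_F. It rose by 0.64 ± 0.05 in males (adjusted p = 1.51e-04) and by 0.19 ± 0.04 in females (adjusted p = 0.0205). Of the 7 other genes, 1 passed in males, against 21.6% of all genes. It was the ferritin heavy chain gene Fth1 (0.40 ± 0.05, adjusted p = 0.00151). The 7 ranged from -0.35 to 0.40 with a median of -0.02. In females 0 of 7 passed by limma, against 11.5% of all genes, 3 of 7 had an unadjusted p under 0.05, and the 7 had a range from -0.52 to 0.26. The male difference minus the female one was also tested by limma over all 12 libraries. There 2 of the 7 passed, against 13.0% of all genes, Fth1 (0.37 ± 0.06, adjusted p = 0.00131) and Dagla (-0.62 ± 0.14, adjusted p = 0.0126). Fads3 passed as well (0.45 ± 0.06, adjusted p = 2.4e-04).

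**Figure D4:**
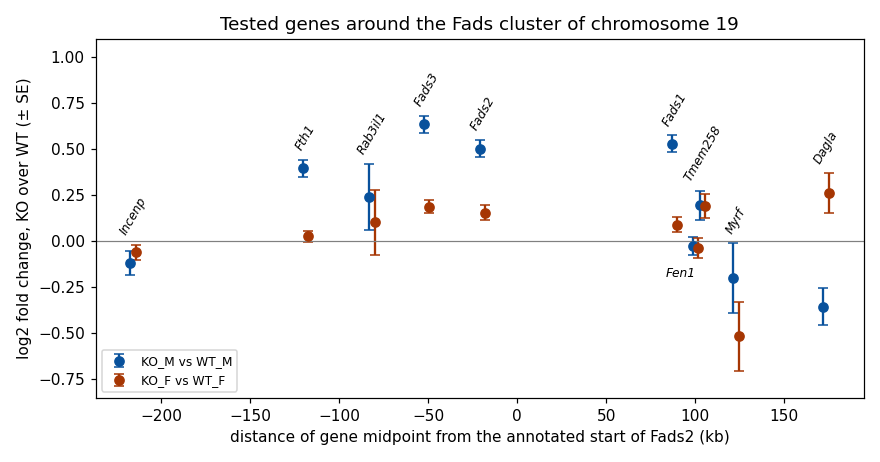
Log2 fold change of KO over WT (± SE) on the log2(TPM + 1) scale for the 10 tested genes around Fads2, against the distance in kb of each gene's midpoint from the annotated start of Fads2. In males (blue) Fads3, Fads2, Fads1 and Fth1 lie between 0.40 and 0.64 and the other genes lower. In females (orange) the 3 desaturases lie between 0.09 and 0.19, within the range of the 7 other genes (-0.52 to 0.26).

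Whether the KO difference itself differed between the sexes was tested as an interaction over all 12 libraries, as the male difference minus the female one. Over all genes 13.0% passed, 6.7% with a higher and 6.33% with a lower value in males. Of the 11 synthesis genes 4 passed, 3 with a higher and 1 with a lower value in males, and of the 32 oxidation genes 1 passed, which became 2 without KO_M replicate 3 or KO_F replicate 3. Fads1 differed by 0.44 ± 0.06 (adjusted p = 2.86e-04), Fads2 by 0.35 ± 0.06 (adjusted p = 0.00189) and Elovl1 by 0.37 ± 0.08 (adjusted p = 0.0111). The female differences of the former pair were smaller and that of Elovl1 was -0.07. Elovl6 differed by -0.47 ± 0.09 (adjusted p = 0.00546), with the rise in females. Acsl4 differed by -0.45 ± 0.10 (adjusted p = 0.0150), from a negative difference in males and a positive one in females.

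These 5 calls held without each of the 12 libraries in turn. Scd2 gave an interaction of -0.05 ± 0.06 (95% interval -0.18 to 0.07, adjusted p = 0.643). The genes called in 1 sex only were not all shown to differ between the sexes: the interaction was 0.22 ± 0.07 for Slc27a4 (adjusted p = 0.0795), 0.24 ± 0.09 for Acads (adjusted p = 0.104), 0.37 ± 0.13 for Cpt1c (adjusted p = 0.0830), 0.22 ± 0.11 for Cpt1a (adjusted p = 0.265), 0.13 ± 0.10 for Acsl3 (adjusted p = 0.486), 0.10 ± 0.09 for Acadvl (adjusted p = 0.510) and -0.03 ± 0.08 for Acaa2 (adjusted p = 0.885). For Acaca, Fasn and Hadhb it was -0.31 ± 0.16 (adjusted p = 0.264), -0.17 ± 0.08 (adjusted p = 0.216) and 0.13 ± 0.09 (adjusted p = 0.394). Prkaa2 passed in the fit without the filter, where 6.98% of 22401 genes did, at 0.82 ± 0.18 (adjusted p = 0.0242). Fits that left out a library covered only genes above the filter, so how far this call holds was not tested.

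The sexes were also compared within each genotype, in libraries already used above, so these values share samples with the KO comparisons. Between WT_M and WT_F, where 12.8% of all genes passed (6.26% higher and 6.56% lower in males), 4 of 11 synthesis genes passed and all 4 were lower in males, namely Fads2 (-0.32 ± 0.05, adjusted p = 0.00637), Fads1 (-0.26 ± 0.04, adjusted p = 0.00550), Acly (-0.25 ± 0.04, adjusted p = 0.00831) and Scd2 (-0.20 ± 0.04, adjusted p = 0.0153). The libraries listed above show this for Fads1, whose WT_M values of 58.7 to 59.6 TPM lay below all WT_F values of 70.2 to 71.4 TPM. Acly was at 111 to 121 TPM in WT_M and at 138 TPM in each WT_F library. The Scd2 call held only without WT_M replicate 2 (adjusted p = 0.0342) or WT_F replicate 1 (0.0200) and was otherwise up to 0.0589, whereas the other 3 held without each library. Of 32 oxidation genes 3 passed, all higher in males, the electron transfer genes Etfa (0.17 ± 0.03, adjusted p = 0.0198) and Etfb (0.25 ± 0.06, adjusted p = 0.0288) and the dehydrogenase Acadl (0.22 ± 0.05, adjusted p = 0.0337). The groups did not overlap for 10 oxidation and 5 synthesis genes, against 33.4% of all genes. The Acadl call was lost whichever library was left out (adjusted p from 0.0617 to 0.101), the Etfa call was lost in 5 of 6 such fits and the Etfb call in 4 of 6. The oxidation count was 3 without WT_M replicate 2, with Etfa and Etfb but not Acadl among them, was 1 without WT_F replicate 1, and was 0 by limma without any 1 of the other 4 libraries, with 5 to 10 genes at an unadjusted p under 0.05.

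Between KO_M and KO_F, where 16.6% of all genes passed (8.17% higher and 8.39% lower in KO_M), 4 of 11 synthesis genes passed. Fasn (-0.26 ± 0.05, adjusted p = 0.0133) and Scd2 (-0.26 ± 0.04, adjusted p = 0.00805) were lower in KO_M, and Elovl1 (0.27 ± 0.06, adjusted p = 0.0252) and Fads1 (0.18 ± 0.05, adjusted p = 0.0439) were higher. KO_M and KO_F did not overlap for 14 oxidation and 8 synthesis genes, against 35.4% of all genes. Fads1 stood lower in males than in females among WT libraries and higher among KO libraries. Fads2 was lower in WT_M than in WT_F, but KO_M and KO_F overlapped (0.03 ± 0.04, adjusted p = 0.6255). Of 32 oxidation genes 6 passed, with Acadsb (0.91), Cpt1a (0.36), Eci1 (0.26) and Hsd17b4 (0.22) higher in KO_M and Acad10 (-0.72) and Acsl4 (-0.32) lower. Their adjusted p ran from 0.0297 to 0.0462, and the count fell to 2 without KO_M replicate 1, to 0 by limma without KO_F replicate 2 (12 at an unadjusted p under 0.05) and to 1 without any other library. Among the synthesis genes the Fads1 call was lost whichever library was left out (adjusted p up to 0.128), the Elovl1 call unless that was KO_F replicate 2 (up to 0.0845), and the Fasn call without KO_M replicate 3 (0.0541) or KO_F replicate 1 (0.0508), while the Scd2 call held throughout.

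Other genes of both pathways came from a list of 48 for oxidation and lipid release, of which 39 were tested, and 35 for synthesis, of which 27 were tested. In males 13 of the 39 passed (33.3%, against 21.6% of all genes), 7 higher and 6 lower in KO_M. Among those that passed without overlap, the largest changes were those of Fabp4 and Fabp3, which carry fatty acids in the cytosol, and Acot2, a mitochondrial acyl-CoA thioesterase. Fabp4, which is also the adipocyte marker given above, was at 6.40, 7.26 and 6.42 TPM in WT_M and 1.48, 0.98 and 0.79 TPM in KO_M (-1.90 ± 0.17, adjusted p = 3.56e-04). Acot2 was at 4.70, 5.79 and 5.75 TPM in WT_M and 20.8, 20.9 and 16.7 TPM in KO_M (1.67 ± 0.13, adjusted p = 1.80e-04), and its close paralogs could share its reads. Fabp3 was at 12.2 to 13.9 TPM in WT_M and 3.88 to 6.10 TPM in KO_M (-1.18 ± 0.16, adjusted p = 0.00277). Of the 27 other synthesis genes 6 passed (22.2%), all higher in KO_M, and the median of the 27 was 0.11.

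In females 4 of the 39 other oxidation genes passed (10.3%), 2 higher and 2 lower, and 4 of the 27 other synthesis genes (14.8%), 2 higher and 2 lower, against 11.5% of all genes. Among those that passed without overlap, the 3 largest changes were decreases. Elovl4, the elongase of the longest chains, was at 21.9, 23.5 and 21.7 TPM in WT_F and 13.7, 13.8 and 11.9 TPM in KO_F (-0.73 ± 0.08, adjusted p = 0.00279). Dgat2, which makes triglyceride, was at 8.78, 7.77 and 8.22 TPM in WT_F and 5.75, 5.30 and 5.31 TPM in KO_F (-0.52 ± 0.10, adjusted p = 0.0187). Pnpla2, the lipase that opens triglyceride breakdown, was at 25.4, 26.5 and 23.9 TPM in WT_F and 18.8, 15.8 and 17.7 TPM in KO_F (-0.51 ± 0.08, adjusted p = 0.0116). In the interaction 7 of the 39 (17.9%) and 6 of the 27 (22.2%) passed, against 13.0% of all genes.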

How the data were processed

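PolyA RNA of 12 MEF cultures was sequenced as paired ends, and the authors quantified the reads with Salmon (1.10.1 per the labels) against GRCm38 and deposited TPM per gene with versioned Ensembl identifiers. TPM sum to a fixed total and keep no read count, so the depth and the counting error are unknown, and a large change in a few genes shifts all others. Groups came from the labels of sex and genotype. The authors' test was DESeq2 on TPM. Since TPM are not counts, log2(TPM + 1) values of genes that averaged 1 TPM or more were fitted with limma 3.58.1 (R 4.3.3, eBayes with trend), in fits of the 6 libraries compared (12 for the interaction), with Benjamini-Hochberg adjustment over all genes. Genes below the filter came from the fit without it. The code was tested on simulated data.

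Symbols came from GENCODE (99.4% of identifiers matched, 93.6% with the same version), and promoters from RefSeq for GRCm38.p6. The genes and lists were chosen with earlier results of these data known. Values per library are given for genes past the threshold in either sex or in the interaction and for Acaca, Fasn, Slc27a4, Hadhb and Prkaa2, which the study names. Of other pathway genes, up to 3 per comparison are named, those with the largest change among genes past the threshold without overlap.

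Alternatives were a pseudocount of 0.1, no filter, an average of 5 TPM or more, scaling by median of ratios (factors 0.966 to 1.02), all 12 libraries in 1 fit, the replicate number as a block, and leaving out each library.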

Additional observations from a re-analysis of the deposited data

Results flagged for a closer look

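For 6 genes the KO difference was itself different between the sexes by limma's interaction test over the 12 libraries, on the log2(TPM + 1) scale. The male difference exceeded the female one by 0.44 for Fads1, 0.35 for Fads2 and 0.37 for Elovl1, all genes of fatty acid synthesis that rose in males. For Fads2 the sexes differed in WT, at 67.6 TPM in WT_M and 84.4 TPM in WT_F. Its KO groups overlapped, at 96.2 TPM in KO_M and 94.0 TPM in KO_F. The male difference was lower than the female one by an interaction of -0.47 for Elovl6, which rose in females, and of -0.45 for Acsl4, which passed in neither sex alone. Prkaa2, at 0.82, has a mean below 1 TPM and was tested only in the fit without the filter on low values. The number of lines behind each group is not stated, so a difference between sexes and one between lines cannot be told apart.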

How the results depend on the processing

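Counts of passing genes out of 32 oxidation and 11 synthesis genes moved by over 1.5 times under some alternatives. Without the filter on low values, where all 35 oxidation genes were tested, oxidation went from 3 to 1 in KO_F against WT_F, from 6 to 1 in KO_M against KO_F and from 1 to 2 in the interaction, the added gene being Prkaa2, which is not among the 32. With median-of-ratios scaling, synthesis in KO_F against WT_F went from 2 to 4 (Scd1 and Fads2 added). With all 12 libraries in 1 fit, oxidation in WT_M against WT_F went from 3 to 5. Deviations of same-numbered libraries correlated by -0.06 to 0.08, so the numbers were not taken as pairs. With the replicate block, oxidation counts were 1 in KO_F against WT_F, 2 in the interaction, 1 in WT_M against WT_F and, by limma, 0 in KO_M against KO_F (11 at an unadjusted p under 0.05), and synthesis in KO_F against WT_F was 1, while over all genes 2366 passed in males and 670 in females. The cause of these shifts was not tested.

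Leaving out 1 library gave oxidation counts of 2 to 4 in males, 0 to 1 in females, 1 to 2 in the interaction, 0 to 3 in the WT comparison of the sexes and 0 to 2 in the KO one, and synthesis counts of 4 to 5, 2 to 2, 4 to 5, 3 to 4 and 1 to 3. Slc27a4 in females ran from -0.0138 to 0.0428 and Acaca in females from -0.0731 (without KO_F replicate 3) to 0.17, both changing sign without a call. The calls of Fads1, Fads2, Scd2, Elovl1, Acads and Acadvl in males, of Scd2 in females and of the 5 filtered interactions held under every alternative run. Elovl6 in females lost its call only under the block (adjusted p = 0.0508).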

Other observations

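Plin2, Mgll and Insig1, from the lists of other pathway genes, were singled out after their values were seen, and stand for no group. Plin2, which coats lipid droplets, was at 131, 133 and 131 TPM in WT_M and 62.8, 57.6 and 62.3 TPM in KO_M, and at 127, 118 and 113 TPM in WT_F and 97.4, 99.3 and 97.01 TPM in KO_F. It was lower in KO without overlap in both sexes, by limma at -1.10 ± 0.05 in males and -0.28 ± 0.05 in females (adjusted p = 0.0139), and the drop was larger in males (interaction -0.82 ± 0.07). Mgll, the lipase of monoacylglycerol, was at 18.3, 16.9 and 16.4 TPM in WT_M and 8.99, 7.49 and 9.58 TPM in KO_M (-0.91 ± 0.11, adjusted p = 0.00146), and overlapped in females (0.09 ± 0.09, adjusted p = 0.597). Insig1, which holds back SREBP processing when sterol is plentiful, was higher in KO without overlap in both sexes, at 0.30 ± 0.06 in males (adjusted p = 0.00948) and 0.44 ± 0.08 in females (adjusted p = 0.0153), with no interaction past the threshold (-0.14 ± 0.09, adjusted p = 0.387).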
